A study of Saccharomyces cerevisiae with 12 samples.

Results

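The genes described here encode the proteins of the cytosolic small ribosomal subunit of budding yeast. There are 57 of them among the 6607 distinct identifiers of the deposited table: RPS0A to RPS31, with both copies wherever the gene is duplicated, and ASC1. They were chosen by symbol and not by any measured value, though earlier results of these data were known. The 57 genes form 24 paralog pairs, each with an A copy and a B copy, and 9 single-copy genes. All 57 passed the filter on low values, a mean normalized count of at least 10 over the libraries, as did 5490 genes in all.

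All 12 libraries came from the haploid strain BY4742, of mating type alpha, which carries the deletions his3, leu2, lys2 and ura3. Cells were taken at an OD600 of 0.5, grown in YEPD, a rich medium, or in a minimal one made of yeast nitrogen base, amino acids and 2% dextrose. RNA from each medium was incubated with 4-pentynol and with ADP-ribosyl cyclase (ADPRC), which puts that alkyne in place of part of an NAD cap; in the mock groups the enzyme was left out. All 4 groups, mock included, then went through the click reaction with biotin and through streptavidin beads, and each group has 3 libraries. A mock library therefore holds RNA that reached the sequencer without the enzyme's label, and a value that is higher after ADPRC is a value of captured RNA, not of expression. No label says that the replicates of a group were separate cultures, and the p-values below therefore reflect only the variation among these libraries, which may be technical.

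The small subunit binds the messenger RNA, scans it for the start codon and holds the decoding centre, where the tRNA anticodon is matched to the codon. Its proteins surround the ribosomal RNA in a head, which swivels during translocation, and in a body with a platform. In yeast most of these genes kept both copies of an ancient genome duplication, many carry an intron, and they are transcribed together under Rap1, Fhl1, Ifh1 and Sfp1 in growing cells. An NAD cap is a 5' end that carries the cofactor NAD in place of the usual guanosine cap.

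Libraries held between 3246900 and 13958188 reads, recovered as whole multiples of the smallest step in each column. Mock libraries of minimal medium had the fewest, down to 73413 reads on the 57 genes, and a count of 3 reads corresponded to a normalized count between 1.60 and 5.42, far below the members' levels. Reads on the open reading frames inside the ribosomal DNA took 52.9% ± 2.02 (SD, n = 3) of a minimal mock library and 31.7% ± 1.34 of a minimal ADPRC library, and in YEPD 79.6% ± 1.12 of mock and 74.2% ± 8.17 of ADPRC. The YEPD ADPRC libraries were not alike. In replicate 2 the ribosomal DNA share was 64.8%, and in the other 2 libraries of its group 78.3% and 79.5%. YEPD mock libraries had 78.7%, 79.4% and 80.9%. Replicate 2 stood at 36.9 on the second principal component of all genes, against 3.36 and -0.53 for the other 2. On that component YEPD mock libraries stood at -10.9, -9.97 and -8.43. Minimal libraries stood between -18.5 and -16.3 in mock and between 11.3 and 17.0 after ADPRC. Replicate 2 thus lay farther than the other 2 in the direction in which the minimal libraries moved after ADPRC. All 57 small-subunit genes were higher in replicate 2 than in both other YEPD ADPRC libraries, by a median of 1.74-fold over their mean, against 0.992 over all genes tested. The main counts and the calls that rest on the YEPD ADPRC group are therefore also given without replicate 2. That choice was made after its values were seen, and it leaves 2 libraries in the group and a smaller estimate of spread. Calls and adjusted p-values without replicate 2 are therefore descriptions, and the p-values are likely too small. The main fit used 1 estimate of spread for all 4 groups, so replicate 2 also bears on standard errors and calls in minimal medium. There 28.7% of all genes and pair ratios were called with it and 48.3% without it. How many members were called in minimal medium without it is not given here. Whether replicate 2 or the other libraries of its group show the capture better was not tested. A column of that group carries no replicate number and is called the unnumbered library. Marker genes went with the labels: LEU2, LYS2 and URA3 were at 0 in all libraries, HIS3, which this strain lacks only in part, was between 89.5 and 238, the alpha-cell gene MF(ALPHA)1 was at 2271 or more, and the a-cell genes MFA1, MFA2, STE2, BAR1 and AGA2 reached at most 32.8.

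The 57 genes together took 4.88% ± 0.178 (SD, n = 3) of the signal outside the ribosomal DNA frames in minimal mock and 7.19% ± 0.106 in minimal ADPRC, so that the libraries of these groups did not overlap. In YEPD the share was 4.23% ± 0.0705 in mock and 6.04% ± 1.46 in ADPRC, where replicate 2 had 7.71% and the other libraries 5.34% and 5.06%. Both of these lay above every YEPD mock library. A share rises either because more of this RNA was captured or because other RNA was captured less, and these cannot be told apart here. In bulk RNA, fewer cells that hold a transcript and less of it per cell cannot be told apart either.

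Per kilobase of gene span in the RefSeq R64 gene table (introns included), mock levels in minimal medium ran from a mean of 291 normalized counts per kilobase for RPS9A to 13868 for RPS15, with a median of 2731. RPS15, RPS26A and RPS20 were the 3 highest by this measure. RPS15 lies in the head near the decoding site, RPS26A lies on the platform beside the path by which messenger RNA leaves, and RPS20 lies in the head. RPS9A, RPS22B and RPS14B, the scarcer copies of their pairs, were the 3 lowest.

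In minimal medium the small-subunit genes were higher after ADPRC. Of the 57 genes, 33 were higher and 0 lower at an adjusted p under 0.05 (limma, Benjamini-Hochberg adjustment over the 5490 genes tested), where 14.2% of all genes were called higher and 14.6% lower. Their median log2 change was 0.66, against 0.013 over all genes, and the range was -0.21 for RPS12 to 1.95 for RPS20. In 49 of the 57 genes every ADPRC library lay above every mock library, and in 0 every one lay below, where 27.5% and 27.3% of all genes did so. At an unadjusted p under 0.05, 41 were higher and 0 lower, where 21.7% and 21.6% of all genes were. The spread behind these calls was estimated over all 4 groups, YEPD ADPRC replicate 2 included. A fit of the minimal-medium libraries alone called 48 higher, where 23.5% of all genes were. Leaving out any 1 of the minimal-medium libraries from the main fit gave between 16 and 23, where 6.15% to 9.87% were.

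Across the 5423 tested genes with a known span, shorter genes had larger changes, with a Spearman correlation between change and span of -0.68 in minimal medium and -0.69 in YEPD, a description across genes of the same libraries. The small-subunit genes are short, with a median span of 768 bases against 1269 over those genes. With each library's trend with gene length removed, 17 members were higher, where 8.87% of all genes were, and 2 were lower, where 5.16% were. The median over the members was then 0.36, against 0.051 over all genes. The span counts introns, so that genes with an intron were treated as longer than their messenger RNA. In that fit 12 of the 37 genes with an intron in the coding region were higher and 0 lower (median 0.42). Of the 20 without one, 5 were higher and 2 lower (median 0.30), beside the same shares of all genes. How far the removal falls short for genes with an intron was not tested. The 2 that were lower in that fit were RPS12 (-0.63, adjusted p = 0.011) and RPS25B (-0.50, adjusted p = 0.00612). Among the 57 genes themselves, the change was only loosely related to span, with a Spearman correlation of -0.15 over all 57 and of -0.39 over the 20 without an intron in the coding region; both are descriptions across genes that share the same libraries.

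RPS20 (YHL015W) moved most. It encodes a head protein that the ubiquitin ligase Hel2 marks when ribosomes collide. Its normalized count was 3766, 3478 and 4029.5 in the minimal mock libraries and 14449, 16068 and 13237 in the ADPRC libraries. The groups stood far apart, with the lowest ADPRC library at more than 3 times the highest mock library, and the log2 change was 1.95 ± 0.43 (SE; adjusted p = 0.00832, limma), a 3.88-fold difference. With the length trend removed it was 1.51 (adjusted p = 0.0139).

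**Figure D1:**
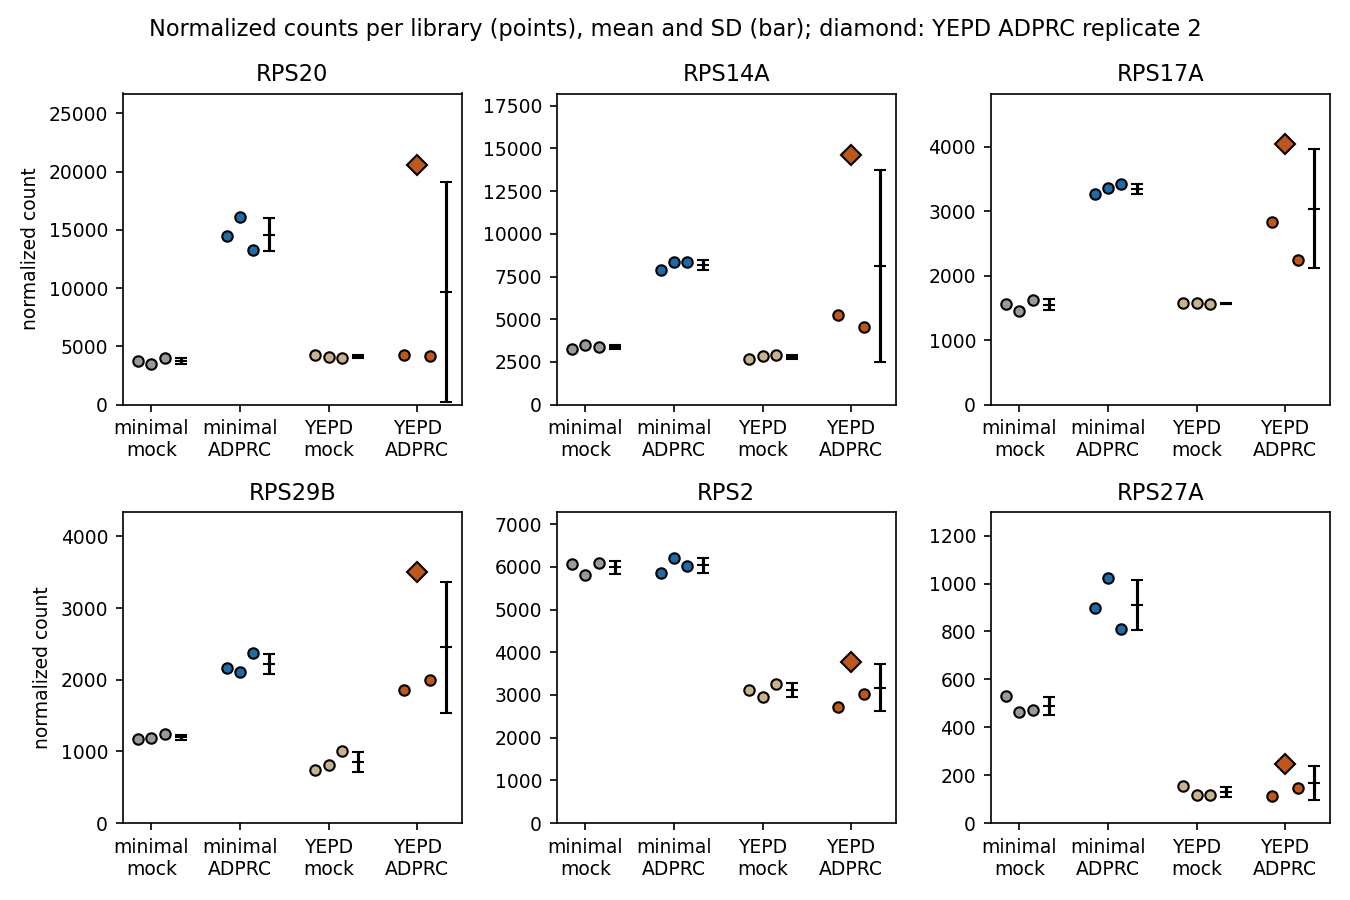
Normalized count per library of 6 small-subunit genes in the 4 groups, on linear axes that start at 0; points are libraries, bars are the mean and SD (n = 3), and the diamond is YEPD ADPRC replicate 2. RPS20 lies between 13237 and 16068 in the minimal ADPRC libraries and at 4248 and 4166 in the YEPD ADPRC libraries other than replicate 2, RPS2 is level with its mock libraries in both media, and RPS27A is far lower in YEPD.

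RPS14A (YCR031C) was the next largest. It encodes a platform protein close to the messenger RNA exit. Its level was 3283, 3485 and 3382 in mock and 7859, 8348 and 8352 after ADPRC, again with a wide gap between the groups (log2 change 1.27 ± 0.30, adjusted p = 0.0116). RPS17A (YML024W), a head protein gene, went from 1566, 1455 and 1625 to 3263, 3367 and 3423 (1.11 ± 0.16, adjusted p = 0.00117). The spread within each group was small, and this call was among those that held in every alternative run.

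RPS13 (YDR064W), a body protein gene, read 2237, 2202 and 2111 in mock and 4486, 4757 and 4255 after ADPRC, with no overlap (1.04 ± 0.24, adjusted p = 0.0108). RPS21B (YJL136C), whose protein sits next to those of RPS0 and RPS2 on the body, read 786, 804 and 874 and then 1673, 2183 and 1347. The ADPRC libraries of RPS21B differed among themselves more than those of RPS13, and although none overlapped mock (1.05 ± 0.35, adjusted p = 0.0385), the call was lost when any 1 of the minimal-medium libraries was left out (adjusted p up to 0.142, without ADPRC replicate 2).

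Of the 33 calls, 15 held when each minimal-medium library was left out in turn, and 13 of these also held under every other alternative. Among the 13 were RPS9B, RPS10A, RPS13, RPS14A, RPS16A, RPS16B, RPS17A, RPS20, RPS29A, RPS29B, RPS30A and RPS31. RPS31 (YLR167W) is the gene in which ubiquitin is fused to a small-subunit protein, and it read 3958, 4015 and 4268 in mock and 7344, 7009 and 7734 after ADPRC (0.85 ± 0.18, adjusted p = 0.00657). RPS10A, a head protein gene, read 993, 1015 and 1020.4 and then 1718, 1649 and 1683, with the replicates of each group within a narrow band (0.74 ± 0.11, adjusted p = 0.00127).

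Some members did not pass the threshold and had changes near 0. RPS2 (YGL123W), whose protein lines the entry of the messenger RNA channel and bears on decoding accuracy, read 6060.5, 5818 and 6099 in mock and 5862, 6207 and 6031 after ADPRC (0.0097 ± 0.13, adjusted p = 0.961). RPS3 (YNL178W), which encodes the other main protein of the channel entry, read 4149, 3789 and 4226 and 3757, 4361 and 4115 (0.0071 ± 0.14, adjusted p = 0.973). In both genes the 2 groups overlapped. RPS12 (YOR369C), which encodes a protein of the head's beak, read 1842, 1532 and 2307 and 1508, 1862 and 1492, also overlapping (-0.21 ± 0.19, adjusted p = 0.413). So did RPS25B (-0.035 ± 0.13), RPS22B (-0.055 ± 0.17) and RPS19A (0.18 ± 0.17).

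Others were higher in every ADPRC library than in every mock library without passing the threshold. RPS15 read 6088, 5768 and 5991 in mock and 8062, 6902 and 8998 after ADPRC, so that its groups stood apart but the ADPRC libraries varied (0.42 ± 0.19, adjusted p = 0.112). RPS19B, RPS28B, RPS1B, RPS30B and RPS4A also had groups that stood apart without a call. Their log2 changes lay between 0.56 for RPS4A and 0.93 for RPS19B, with adjusted p between 0.051 and 0.13. Their standard errors come from all 4 groups. RPS19B read 2720, 3129 and 2855 in minimal ADPRC but 1395, 4669 and 1322 in YEPD ADPRC (unnumbered, replicates 2 and 3). ASC1 (YMR116C), whose protein is a propeller-shaped scaffold on the head that takes part in quality control of stalled ribosomes, passed it: 3238, 3445 and 3501 in mock and 5939, 5266 and 6033 after ADPRC, with no overlap (0.76 ± 0.25, adjusted p = 0.035). An intron of ASC1 holds the small nucleolar RNA gene SNR24 and RPS22B overlaps SNR44; whether reads of these RNAs were counted with the host genes was not tested.

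**Figure D2:**
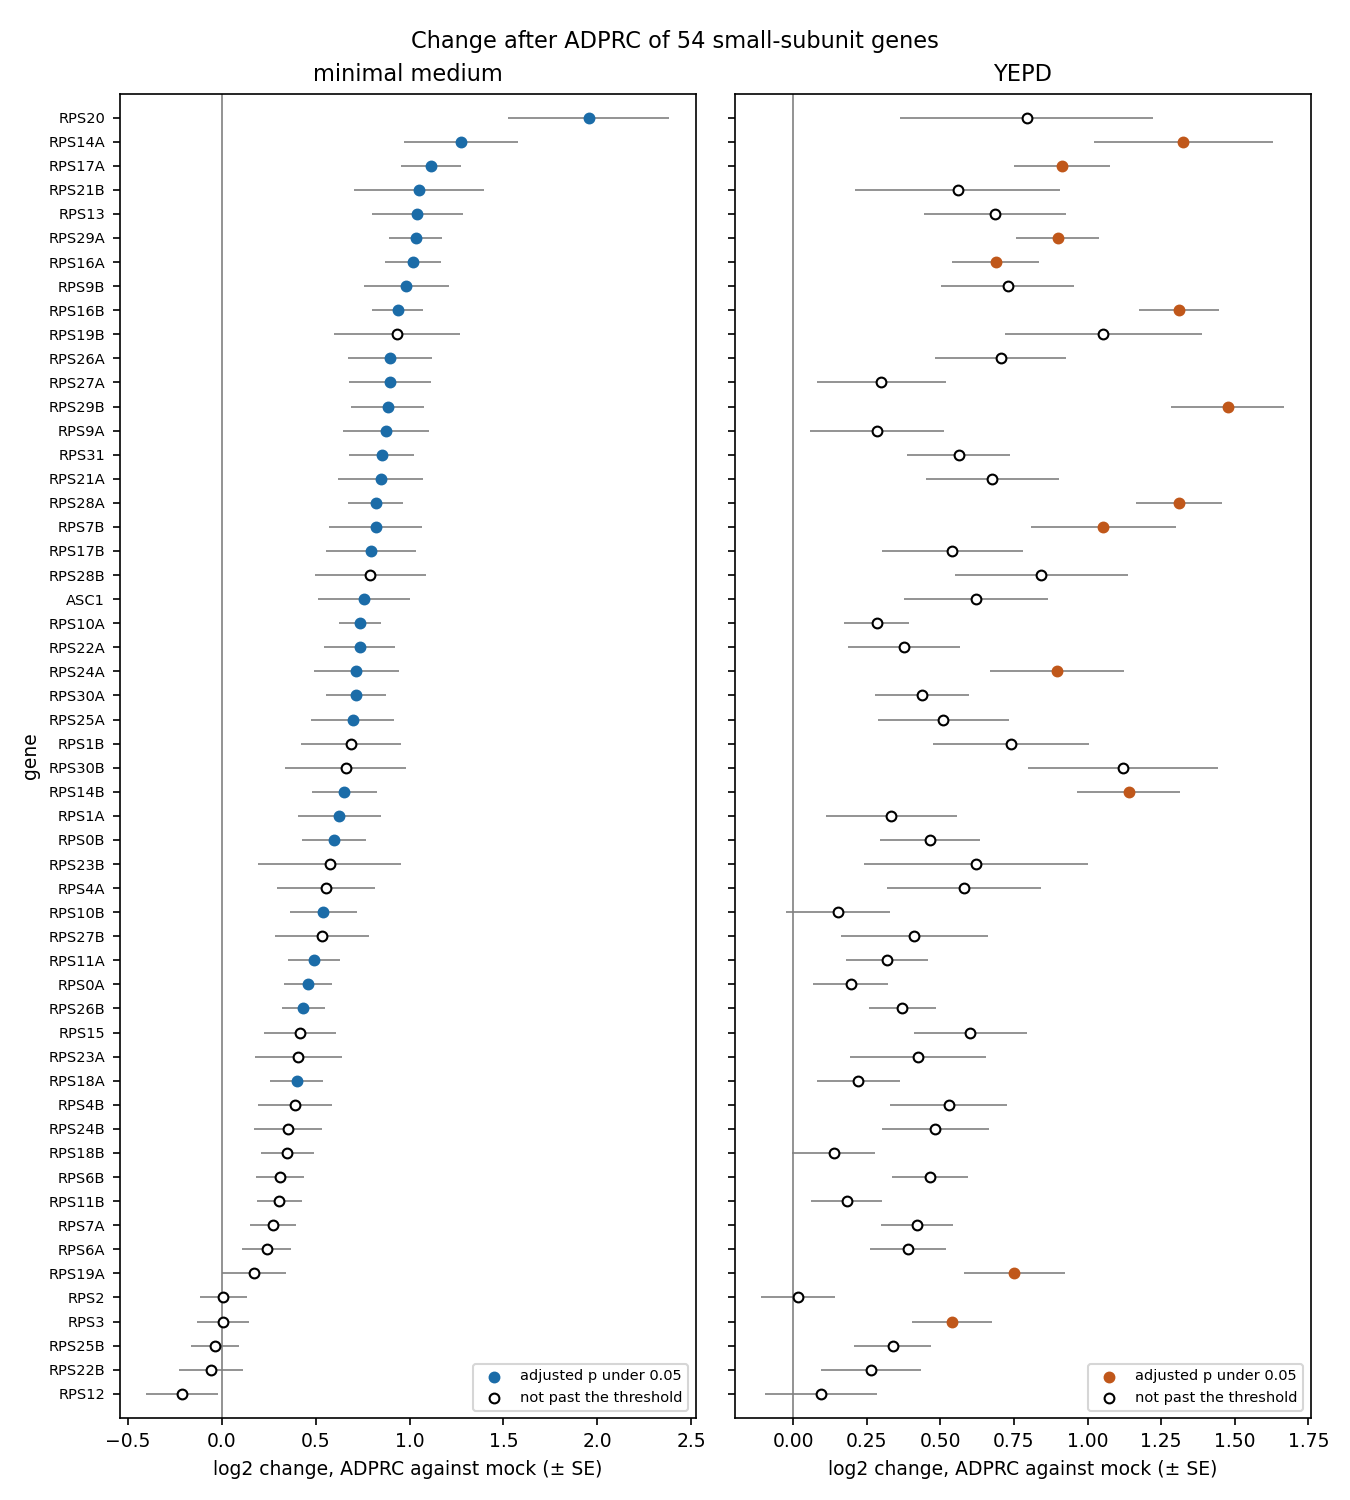
Log2 change after ADPRC of 54 small-subunit genes in minimal medium (left) and YEPD (right), ordered by the change in minimal medium; points are estimates from limma, horizontal lines are standard errors (n = 3 libraries per group), and filled points have an adjusted p under 0.05. In minimal medium 32 points are filled, all to the right of 0, with RPS20 at 1.95; in YEPD 12 are filled, led by RPS29B at 1.48.

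In YEPD fewer members passed the threshold. After ADPRC 13 of the 57 genes were higher and 0 lower, where 4.92% of all genes were higher and 0.546% lower. All 57 had a positive log2 change, with a median of 0.54 against -0.00066 over all genes. The ADPRC libraries lay wholly above the mock libraries in 35 genes and wholly below in 0, where 15.2% and 17.0% of all genes did so.

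This picture depended on replicate 2. Without it 25 of the 57 genes were higher and 0 lower, where 6.19% and 1.41% of all genes were. The median log2 change then fell to 0.21, and 46 of the 57 genes stayed positive, so that more genes passed with smaller changes and a smaller spread. Without it the libraries of 35 genes lay wholly above mock and those of 0 wholly below, where 18.8% and 21.7% of all genes did so. Leaving out replicate 3 instead gave 35 calls, where 11.3% of all genes were higher. Without the mock libraries in turn there were 6, 6 and 8, where 1.95%, 2.57% and 3.45% were, and a fit of the YEPD libraries alone called 4, where 0.838% were. With the length trend removed 10 were higher, where 2.93% of all genes were, and 0 were lower, where 0.387% were. Without replicate 2 as well, that fit called 16 higher and 0 lower (shares of all genes not given here). Its median was 0.11 over the members, of which 38 were positive, and 0.012 over all genes. At an unadjusted p under 0.05 in the main fit, 38 were higher and 0 lower, where 14.7% and 13.8% of all genes were. Without replicate 2 it was 33 and 0, where 11.7% and 9.04% were.

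RPS29B (YDL061C) had the largest change in YEPD. It encodes a small zinc-binding protein of the head. The mock libraries read 745, 805 and 1007, and the ADPRC libraries read 1859.6 (unnumbered), 3502 (replicate 2) and 1996 (replicate 3). All 3 lay above mock, with a log2 change of 1.48 ± 0.19 (adjusted p = 6.11e-04). Without replicate 2, with 2 ADPRC libraries and a smaller spread, it was 1.19 ± 0.092 (adjusted p = 1.11e-09).

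RPS16B, RPS28A and RPS14B also stayed near their value when replicate 2 was left out. RPS16B (YDL083C) encodes a head protein whose tail reaches toward the tRNA site. Its mock libraries read 1546, 1687 and 2021 and its ADPRC libraries 4135, 5058 and 3853 (unnumbered, replicates 2 and 3), with a gap between the groups (1.31 ± 0.14, adjusted p = 1.18e-04; without replicate 2 1.20 ± 0.092). RPS28A, from the tRNA exit side of the head and platform, read 948, 1006 and 1223 and then 2552, 3281 and 2128 (1.31 ± 0.15, adjusted p = 2.04e-04; without replicate 2 1.15 ± 0.093). The lowest ADPRC library was well above the highest mock library in both genes. RPS14B, whose splicing is repressed by its own protein product, read 289, 354 and 400.3 and then 796, 893 and 619.8 (1.14 ± 0.17, adjusted p = 0.00168; without replicate 2 1.02 ± 0.20, adjusted p = 0.0166).

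Calls on RPS14A and RPS7B were less stable when 1 library was left out. RPS14A read 2677, 2846 and 2903 in mock and 5226, 14591 and 4569.6 after ADPRC, so that replicate 2 was at 2.98-fold the mean of the other two (1.33 ± 0.30, adjusted p = 0.0205; without replicate 2 0.80 ± 0.071, adjusted p = 9.17e-09). Its call was lost without any 1 of the mock libraries (adjusted p up to 0.0923). RPS7B, a platform protein gene, read 673, 661 and 935 and then 1482, 2505 and 1002, and replicate 3 was only slightly above the highest mock library (1.05 ± 0.25, adjusted p = 0.0236). Without replicate 2 its change was 0.71 ± 0.20 (adjusted p = 0.0843), past the threshold no longer.

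The other calls in YEPD included RPS17A (0.91 ± 0.16), RPS29A (0.90 ± 0.14), RPS24A (0.90 ± 0.23), RPS19A (0.75 ± 0.17), RPS16A (0.69 ± 0.15) and RPS3 (0.54 ± 0.14), with adjusted p between 0.00217 for RPS29A and 0.0355 for RPS24A. Without replicate 2 all 6 were called at smaller changes, namely 0.69 ± 0.080, 0.73 ± 0.092, 0.52 ± 0.077, 0.51 ± 0.089, 0.47 ± 0.067 and 0.39 ± 0.078, with adjusted p up to 0.00131. RPS3 read 3323, 3303 and 3729.7 in mock and 4760.1, 6145 and 4306 after ADPRC, with no overlap. Leaving out 1 library at a time, 6 of the 13 calls held throughout: RPS14B, RPS16B, RPS17A, RPS28A, RPS29A and RPS29B. Of these RPS16B and RPS29B also held under every other alternative run. The single-copy RPS2 was level in YEPD as well, with 3111, 2945 and 3269 in mock and 2709, 3783 and 3025 after ADPRC (0.017 ± 0.13, adjusted p = 0.947; without replicate 2 -0.12 ± 0.070, adjusted p = 0.359).

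RPS20, first in minimal medium, was also the member that stood farthest above the other YEPD ADPRC libraries in replicate 2. In YEPD its mock libraries read 4265, 4065 and 4039.7, the unnumbered ADPRC library and replicate 3 4248 and 4166, and replicate 2 20589. Only replicate 2 stood above mock, at 4.89-fold the mean of the other two, so that the change of 0.79 ± 0.43 (adjusted p = 0.235) became 0.029 ± 0.077 without it (adjusted p = 0.88). RPS21B and RPS23B, the latter from a decoding-centre protein pair, had the same shape: replicate 2 was at 3.41-fold and 3.48-fold the mean of the others, and their changes without it were -0.030 ± 0.15 and 0.020 ± 0.28. At the other end, RPS11B and RPS26B were at 1.11-fold.

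The effect of ADPRC was compared directly between the media with an interaction term. With all libraries 0 of the 57 genes were called in either direction, where 0% of all genes were called; the lowest adjusted p of a member was 0.428, and at an unadjusted p under 0.05 there were 1 member higher in minimal medium, 4 lower, and 462 genes in all. edgeR and DESeq2 called 0 members and 0 genes, and limma without a trend and robust estimation 0 members and 3 genes. Without YEPD ADPRC replicate 2 the same term called 31 members higher in minimal medium, where 8.99% of all genes were, and 1 lower, where 10.1% were. The 1 was RPS3 (-0.39 ± 0.10, adjusted p = 0.0108), and the largest positive difference was that of RPS20 (1.92 ± 0.10, adjusted p = 8.89e-13). The comparison between the media was thus set by this library: its call count went from 0 to 32 without it. With the length trend also removed, the fit without replicate 2 called 19 members higher in minimal medium and 5 lower. The median over the members was then 0.22 instead of 0.39, against 0.022 over all genes. Shares of all genes called in that fit are not given here. Across the 57 genes the changes in the 2 media had a Spearman correlation of 0.65, and of 0.40 without replicate 2, a description across genes of the same libraries.

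**Figure D3:**
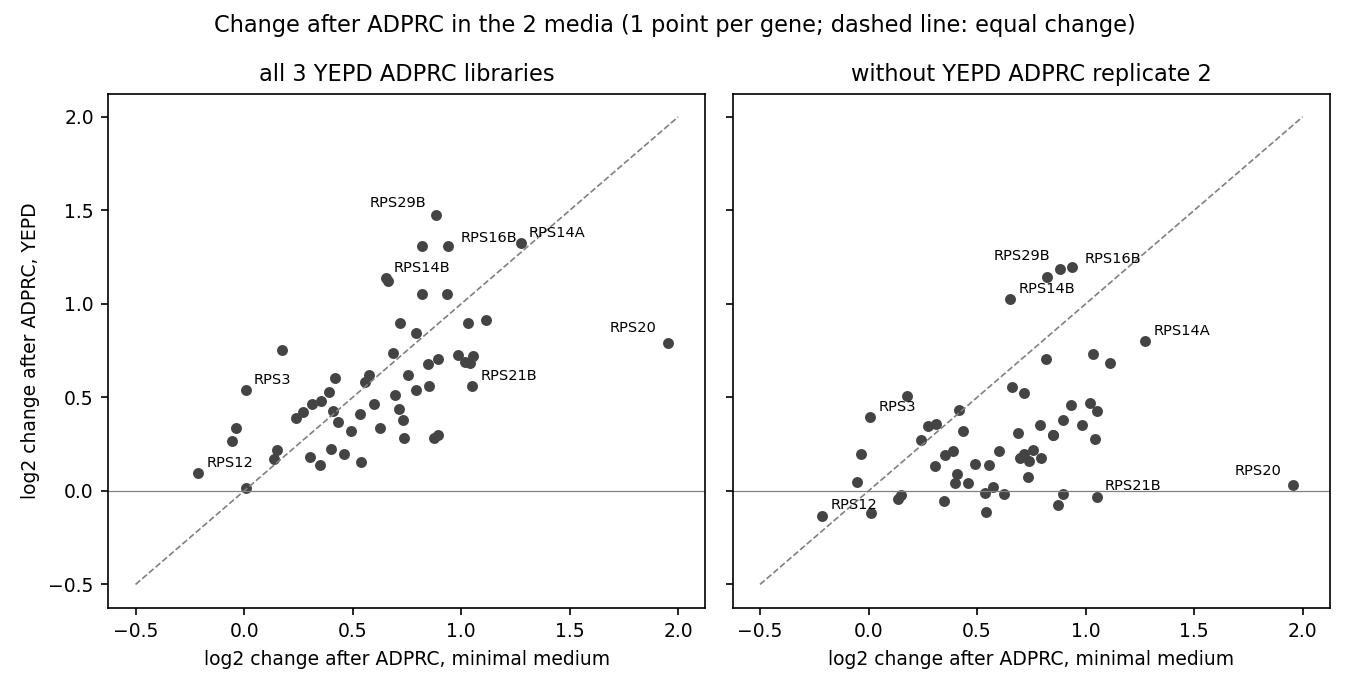
Log2 change after ADPRC in YEPD (y axis) against that in minimal medium (x axis), 1 point for each of the 57 small-subunit genes, with all YEPD ADPRC libraries (left) and without replicate 2 (right); the dashed line marks equal change. Without replicate 2 RPS20 drops from 0.79 to 0.029 on the y axis, while RPS29B, RPS16B and RPS14B stay above 1.

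Paralog copies were compared through the ratio of the A copy to the B copy in each library, which does not depend on how a library was scaled. The 2 genes of a pair encode the same or nearly the same protein, and how reads that match both copies were counted is not given in the sources used here, so a difference between copies could be blurred where their sequences are close. In minimal medium 4 of the 24 pairs changed unequally after ADPRC, where 28.7% of all genes and pair ratios together were called in either direction: in 3 the ratio shifted toward the A copy and in 1 toward the B copy. The ratio libraries did not overlap in 9 pairs toward A and 3 toward B, beside the 27.5% and 27.3% of all genes whose levels did not. With the spread estimated without YEPD ADPRC replicate 2, 10 and 2 pairs were called, where 48.3% of all genes and ratios were. In neither fit were pairs called clearly more often than all rows, so the counts show nothing particular to pairs in minimal medium. The pairs below are given as single cases.

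RPS22 differed most. It encodes a body protein that binds the core of the ribosomal RNA. The A copy was 5.37, 5.58 and 4.19 times the B copy in mock and 9.34, 8.27 and 8.39 times after ADPRC, a shift with no overlap (0.79 ± 0.13 on the log2 scale, adjusted p = 0.00241). The A copy itself went from 1777, 1750.3 and 1761 to 2953, 2961 and 2885, while the B copy went from 331, 314 and 421 to 316, 358 and 344 and overlapped. The B copy is scarce and overlaps SNR44, and whether reads of that RNA entered its count and the ratio was not tested.

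RPS25, a head protein gene needed by viral entry elements that recruit ribosomes internally, had A to B ratios of 1.48, 1.49 and 1.47 in mock, close to each other, and 2.49, 2.05 and 2.91 after ADPRC (0.73 ± 0.18, adjusted p = 0.0141). The A copy read 1257, 1316 and 1399.9 and then 2216, 1902 and 2341. The B copy read 848, 885 and 951 and then 889, 927 and 805, with overlap, and only the groups of the A copy stood apart. This call was lost without ADPRC replicate 1 (adjusted p = 0.0501) or replicate 3 (0.0557).

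RPS19, which encodes a head protein, went the other way: ratios of 0.781, 0.734 and 0.785 in mock and 0.494, 0.368 and 0.511 after ADPRC (-0.76 ± 0.22, adjusted p = 0.025). The B copy read 1509.7, 1508 and 1531 and then 2720.1, 3129 and 2855, whereas the A copy read 1179, 1107 and 1201 and then 1345, 1151 and 1459. Only the B copy's groups stood apart. Its call was lost without any 1 of 5 of the 6 libraries, at an adjusted p of up to 0.108 without ADPRC replicate 2.

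RPS24, a body protein gene, had the smallest of the called shifts but narrow groups, at 1.03, 1.03 and 0.989 and then 1.31, 1.33 and 1.3 (0.36 ± 0.10, adjusted p = 0.0218). It was called in YEPD as well, with 0.904, 0.929 and 1 in mock and 1.23, 1.41 and 1.15 after ADPRC (0.41 ± 0.10, adjusted p = 0.0335; without replicate 2 0.33, adjusted p = 0.00236). No other pair was called in both media. In minimal medium its call was lost when any 1 library was left out, with adjusted p between 0.0542 and 0.0696.

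Next in size in minimal medium, but short of the threshold, were RPS14 (0.62 ± 0.27), RPS7 (-0.55 ± 0.21) and RPS26 (0.46 ± 0.19), whose ratio libraries did not overlap. RPS14 read 8, 6.75 and 7.21 in mock and 10.4, 14.3 and 9.47 after ADPRC (adjusted p = 0.092), and replicate 2 stood above the others. RPS7, whose protein is ubiquitinated by Mot2, read 1.43, 1.6 and 1.63 and then 1.04, 1.06 and 1.08, that is, nearer to equal amounts of both copies (adjusted p = 0.0629). RPS26 read 2.76, 2.67 and 2.91 and then 3.74, 4.03 and 3.72 (adjusted p = 0.079). With the spread estimated without YEPD ADPRC replicate 2, RPS14, RPS7 and RPS26 were called at the same differences (adjusted p = 0.00622, 0.0109 and 1.46e-05, limma). For RPS22, RPS25, RPS19 and RPS24 that fit gave adjusted p of 1.56e-06, 0.00388, 1.46e-07 and 2.6e-05 in minimal medium.

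In YEPD 4 pairs changed unequally, where 5.53% of all genes and pair ratios were called: RPS16, RPS9 and RPS1 toward the B copy and RPS24 toward the A copy. Ratio libraries did not overlap in 2 pairs toward A and 6 toward B, or in 6 and 7 without replicate 2, beside shares of 15.2% and 17.0%, or 18.8% and 21.7%, of all genes whose levels did not. Without replicate 2 there were 5 and 4 calls, where 7.69% of all genes and ratios were called. Without mock replicate 1 or without mock replicate 2 there were 0 calls.

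RPS16 had A to B ratios of 1.21, 1.05 and 0.872 in YEPD mock and 0.61, 0.774 and 0.643 after ADPRC (-0.62 ± 0.14, adjusted p = 0.0176), and the groups did not overlap. Without replicate 2 the difference was -0.72 (adjusted p = 7.80e-05). RPS9 encodes a body protein that helps keep decoding accurate, and its A copy is the scarce one. It read 0.112, 0.105 and 0.111 in mock and 0.0759, 0.079 and 0.0868 after ADPRC (-0.44 ± 0.11, adjusted p = 0.0338; without replicate 2 -0.43). RPS1, a platform protein pair, read 0.671, 0.645 and 0.666 and then 0.501, 0.448 and 0.553 (-0.41 ± 0.11, adjusted p = 0.0488; without replicate 2 -0.33). In RPS9 and RPS1 the groups did not overlap either, while the mock libraries of RPS16 lay farther apart than those of the other pairs.

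Other pairs moved by as much without passing the threshold when all libraries were used. RPS30 read 1.66, 1.78 and 1.53 and then 1.29, 0.659 and 1.29 (-0.68 ± 0.20, adjusted p = 0.064), and without replicate 2, its lowest library, it was called at a smaller difference of -0.36 (adjusted p = 0.00488). RPS29 read 0.888, 0.8 and 0.517 and then 0.571, 0.405 and 0.478 (-0.58 ± 0.18, adjusted p = 0.0739; without replicate 2 -0.45, adjusted p = 0.269), with overlap. RPS28, of which the B copy limits its own messenger RNA through Edc3, read 3.43, 3.29 and 3.6 and then 6.13, 3.01 and 5.79. There replicate 2 was below mock and the others above, and the difference of 0.47 ± 0.22 (adjusted p = 0.177) became 0.79 without it (adjusted p = 1.76e-04). RPS7 read 1.99, 1.74 and 1.46 and then 1.09, 0.757 and 1.64 (-0.63 ± 0.21, adjusted p = 0.09; without replicate 2 -0.36, adjusted p = 0.255), with overlap.

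The difference between the media in how a pair's ratio changed was called for 0 pairs (lowest adjusted p = 0.357, for RPS16 and RPS22). Without replicate 2 it was called for 9 pairs, where 19.2% of all genes and ratios were called. In 6 of them the change in minimal medium lay farther toward A than the change in YEPD, and in 3 farther toward B. The shift itself lay in either medium. It was 0.080 in minimal medium and -0.72 in YEPD for RPS16, 0.029 and 0.79 for RPS28, and -0.76 and 0.048 for RPS19. RPS19 (-0.81 ± 0.13, adjusted p = 1.56e-04) and RPS16 (0.80 ± 0.14, adjusted p = 5.53e-04) had the lowest adjusted p. The ratio of RPS6, the protein phosphorylated by Ypk3, varied little, between 0.914 and 0.986 in the 12 libraries.

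**Figure D4:**
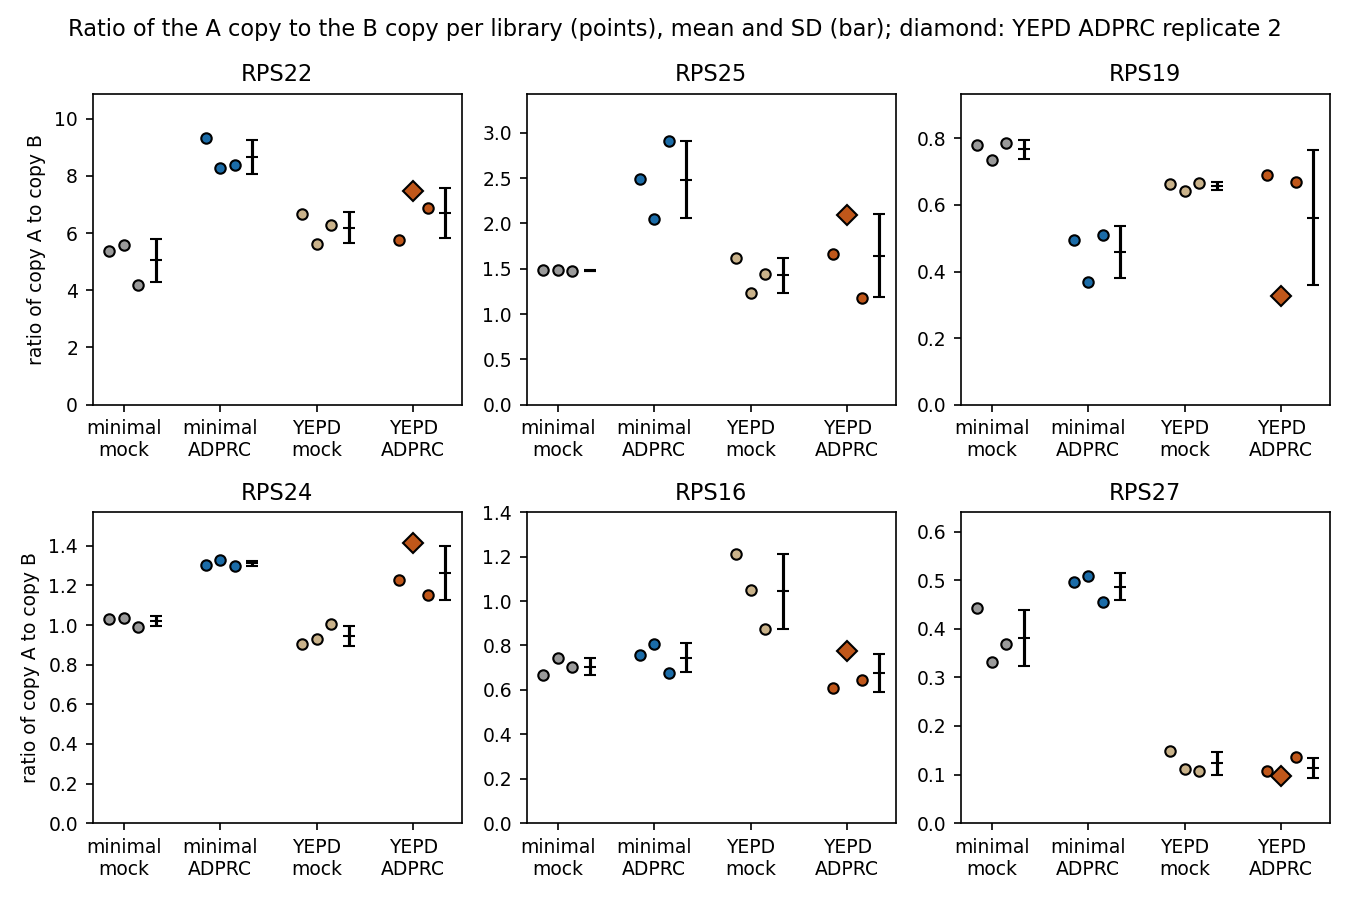
Ratio of the normalized count of the A copy to that of the B copy per library, for 6 pairs in the 4 groups, on linear axes that start at 0; points are libraries, bars are the mean and SD (n = 3), and the diamond is YEPD ADPRC replicate 2. The RPS22 ratio rises from at most 5.58 to at least 8.27 in minimal medium, RPS24 is higher after ADPRC in both media, and RPS27 lies above 0.33 in minimal medium and below 0.15 in YEPD.

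The same libraries were compared between the media. In mock libraries 5 members were higher in minimal medium than in YEPD, where 7.29% of all genes were, and 0 were lower, where 22.4% were. Libraries did not overlap in 28 members toward minimal medium and 8 toward YEPD, where 13.6% and 41.1% of all genes did so. In ADPRC libraries 3 members were higher, where 7.05% of all genes were, and 0 were lower, where 25.7% were. Without replicate 2 it was 44 higher, where 18.5% were, and 0 lower, where 39.2% were. With the length trend also removed it was 23 higher and 5 lower (shares of all genes not given here). The members' median was then 0.18 instead of 0.48, against -0.15 over all genes. Non-overlapping ADPRC libraries were seen in 2 members toward minimal medium and 0 toward YEPD, against 8.38% and 31.8% of all genes, and without replicate 2 in 47 and 0, against 24.4% and 49.3%. These counts depended on scaling. With the same total given to each library, where the ribosomal DNA frames weigh in, the median of all genes moved from -0.20 to 1.03 in mock and to 1.28 in ADPRC, and 56 and 57 members were called higher. The members' medians were above those of all genes in both scalings, at 0.20 and 1.45 in mock.

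The clearest difference was RPS27A (YKL156W), the scarcer copy of a zinc-binding platform protein. Its mock libraries read 529.8, 462 and 473 in minimal medium and 153, 116 and 119 in YEPD (1.91 ± 0.22 for minimal against YEPD, adjusted p = 1.35e-05). Its ADPRC libraries read 898, 1021 and 812 and 112, 246 and 145 (2.51 ± 0.22, adjusted p = 7.90e-07; without replicate 2 2.82 ± 0.12). The B copy differed little, with 1195, 1395 and 1278 in minimal mock and 1028, 1048 and 1098 in YEPD mock. The A to B ratio, which scaling does not touch, was 0.443, 0.331 and 0.37 in minimal mock and 0.149, 0.111 and 0.108 in YEPD mock (1.63 ± 0.15, adjusted p = 2.06e-06), and 2.10 ± 0.15 was its difference in ADPRC libraries (adjusted p = 1.38e-07; without replicate 2 1.99 ± 0.15).

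RPS2 was also higher in minimal medium in both kinds of library, with 6060.5, 5818 and 6099 against 3111, 2945 and 3269 in mock (0.95 ± 0.13, adjusted p = 6.26e-05; ADPRC 0.94 ± 0.13, without replicate 2 1.08 ± 0.070). The remaining calls were RPS19A (0.84 ± 0.17), RPS16B (0.44 ± 0.14) and RPS25B (0.37 ± 0.13) in mock, of which the calls on RPS16B and RPS25B were each lost without any 1 of 5 of the 6 mock libraries, and RPS25A (0.62 ± 0.22, adjusted p = 0.0483) in ADPRC. The call on RPS25A was lost without any 1 of 5 of the 6 ADPRC libraries (adjusted p up to 0.214, without YEPD replicate 3) and with the length trend removed (adjusted p = 0.168), while without YEPD replicate 2 its difference was 0.95 ± 0.12 (adjusted p = 3.31e-06). Of the ratios, 29.6% of all genes and ratios were called between the media in mock, and with RPS27 these were RPS16 (-0.56 ± 0.14), RPS30 (-0.81 ± 0.20) and RPS21 (0.49 ± 0.16). In ADPRC libraries, where 32.7% were called, they were RPS27, RPS25 (0.62 ± 0.18), RPS22 (0.38 ± 0.13) and RPS9 (0.31 ± 0.11). Without replicate 2 these 4 were called too, among 14 pairs, 9 toward A and 5 toward B, where 57.6% of all genes and ratios were called. The counts of pairs called between the media were thus near or below the shares of all rows. The media also differed in their ribosomal DNA share and read totals, and whether those bear on these differences was not tested.

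The members were also counted by their place in the subunit; the shares of all genes called higher, to be read beside these counts and those of the other lists, were 14.2% in minimal medium, 4.92% in YEPD and 6.19% in YEPD without replicate 2. Of the 23 genes for head proteins 15 were higher and 0 lower after ADPRC (median log2 change 0.79), and of the 34 for body and platform proteins 18 and 0 (0.59). In YEPD it was 9 and 0 of 23 (0.62) and 4 and 0 of 34 (0.45), and without replicate 2 it was 11 and 14. With the length trend removed 9 of the head genes and 8 of the body and platform genes were higher in minimal medium, where 8.87% of all genes were. With an intron in the coding region 22 of 37 were higher in minimal medium (median 0.65), and without one 11 of 20 (0.69). No difference between these groups of genes was tested.

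The 81 genes for large-subunit proteins gave similar counts. In minimal medium 39 were higher and 0 lower (median 0.54) and in YEPD 22 and 0 (0.53), or 37 without replicate 2 (0.24). With the length trend removed 21 were higher and 3 lower in minimal medium, where 8.87% and 5.16% of all genes were, and 15 and 0 in YEPD, where 2.93% and 0.387% were. Small-subunit genes were therefore not alone among ribosomal protein genes in being higher after ADPRC, and the difference between the subunits was not tested.

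Genes that act on the small-subunit genes or on their products were called in both directions in minimal medium, where 14.2% of all genes were higher and 14.6% lower. Of 9 regulators of ribosomal protein genes, 0 were higher and 6 lower in minimal medium (median -0.48): RAP1 (-0.33), which binds most of these promoters, FHL1 (-0.48) and its coactivator IFH1 (-0.55), the activator SFP1 (-0.56), the growth kinase SCH9 (-0.70) and UTP22 (-0.51). These are long genes, with a median span of 2475 bases, and with the length trend removed 0 were higher and 0 lower (median -0.087). In YEPD 0 were called in either direction, with or without replicate 2, where 4.92% and 0.546% of all genes were with it. Of 17 maturation factors of the small subunit, 4 were higher, namely TSR3 (0.81), TSR2 (0.75), which escorts the RPS26 protein, YAR1 (0.45), which escorts the RPS3 protein, and BUD23 (0.39). Another 5 were lower: LTV1 (-0.52), TSR4 (-0.48), TSR1 (-0.44), NOB1 (-0.39) and HRR25 (-0.38). With the length trend removed 1 was higher, TSR3, and 4 were lower: TSR4, LTV1, HRR25 and EMG1 (-0.31). In YEPD 0 were called, and without replicate 2 PNO1 was the 1 higher (0.51, adjusted p = 0.00915). Of 5 enzymes and partners that act on the subunit, the ubiquitin ligases HEL2 (-0.61) and MOT2 (-0.46) were lower in minimal medium, 0 were higher, and in YEPD MOT2 (-0.45) was the 1 lower, also without replicate 2 (-0.35) but not with the length trend removed (adjusted p = 0.0804).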

How the data were processed

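The authors deposited 1 table with 1 column per library, whose header calls the values normalized. Each deposited value is a signal: every column held whole multiples of its own smallest step (tolerance 0.01), as read counts divided by a library factor do, and values are called normalized counts here. The submitters' processing notes name HTSeq, Bowtie, DESeq, FastQC and Trimmomatic. Their versions and settings, the genome build, the use of strand and the treatment of multiply mapped reads are not given in the labels. The table has 6608 rows, of which 130 identifiers were 0 in every library; 5919 identifiers matched the RefSeq R64 gene table, used for names, spans and overlaps. Columns of no sample used here number 0.

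The main test was limma 3.58.1 (R 4.3.3, variance trend, robust) on log2(value + 1), over the 5490 genes with a mean of at least 10, with 4 group means over 12 libraries and 5 contrasts; tests were two-sided, with Benjamini-Hochberg adjustment over all genes and a threshold of 0.05. Log2 changes are on that scale. Pair ratios were added as rows to the same fit. The length trend was a loess curve per library on log2 span (smoothing span 0.5) over 5423 genes. Whole reads of 11 libraries went to edgeR 4.0.16 and DESeq2 1.42.0 as alternatives; the step of YEPD mock replicate 2 was too near 1 to recover reads by rule. Other alternatives changed the pseudocount, filter, scaling, variance model, library weights, samples fitted and replicate block, and left out each library in turn. Scripts were tested on simulated data.

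The members and lists were chosen with earlier results of these data known. Genes named per medium were the 6 called members with the largest rise among those whose libraries did not overlap, the copies of the 6 pairs with the largest difference of change, and the single-copy genes; other genes named with calls or as extremes were chosen after their values were seen. Single results of 3 members are not reported here; these genes stay in all counts and medians. Introns are textbook annotations.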

Additional observations from a re-analysis of the deposited data

How the results depend on the processing

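The 0 calls of lower small-subunit genes after ADPRC held under every alternative in YEPD and, in minimal medium, under every alternative but removal of the length trend, which gave 17 higher and 2 lower. Over the remaining alternatives other than leaving out 1 library, the count in minimal medium was between 22 (replicate block) and 49 (same total per library), and leaving out 1 library gave 16 to 23. In YEPD it was 29 with weights per library, 6 with edgeR, 4 with only the groups compared and 3 with the replicate block, and 6 to 35 when 1 library was left out. For the difference between the media, weights per library gave 25 members higher and 4 lower, and leaving out 1 library 0 to 31 higher and 0 to 1 lower. Its median over the members was 0.064 as reported, -0.0082 with the replicate block and -0.10 to 0.39 when 1 library was left out. Between the media in mock libraries, members higher numbered 56 with the same total per library, 8 with quantile normalization, 12 with TMM factors, 27 with weights per library, 32 with only the groups compared and 3 to 5 with 1 library left out. Those lower numbered 1 with quantile normalization, 2 with weights, 3 with the length trend removed and 4 with only the groups compared. In ADPRC libraries those higher numbered 57 with the same total, 7 with the same total outside the ribosomal DNA frames, 10 with quantile normalization, 10 with TMM factors, 42 with weights, 6 with edgeR, 8 with DESeq2 and 2 to 44 with 1 library left out; those lower numbered 1 with weights and 4 with the length trend removed. Pairs with unequal change numbered 12 in minimal medium with weights and 12 with only the groups compared, and 1 to 2 with 1 library left out. In YEPD they numbered 10 with weights, 0 with only the groups compared, 0 with the replicate block, and 0 to 9 with 1 library left out. The cause of these moves was not tested. The difference between the media uses all groups, so a fit of only the groups compared was not run for it. The labels do not say that a replicate number pairs libraries. Mock and ADPRC libraries of the same number did not deviate together (correlations over all genes of -0.0233, -0.0856 and -0.0595 in minimal medium, -0.0356 and -0.146 in YEPD). Between the media the ADPRC libraries numbered 2 and those numbered 3 did (0.32 and 0.22), but these are only 2 pairs, and mock libraries did not (-0.048, -0.022 and -0.014), so the numbers were not taken as a pairing.

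The same total per library moved the median of all genes after ADPRC from 0.013 to 0.44 in minimal medium and from -0.00066 to 0.18 in YEPD, and the members' medians to 1.10 and 0.73, which stayed above it. Depth limits the scarce members most: RPS27A was at 112 in a YEPD ADPRC library and at 116 in a YEPD mock library, and RPS9A was at 264 in a minimal mock library.

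Some values changed sign, and of these RPS26B in minimal medium (0.43 as reported) was the 1 that was called; the largest was RPS21B in YEPD (0.56). With DESeq2, the sign changed for RPS2 (-0.026) in YEPD. With edgeR, the sign changed for RPS2 (-0.0063) in YEPD. With the length trend removed, the sign changed for RPS2 (-0.26), RPS3 (-0.28), RPS19A (-0.062) and RPS26B (-0.016) in minimal medium and RPS2 (-0.19), RPS10B (-0.066), RPS12 (-0.25), RPS18B (-0.032), RPS25B (-0.070) and RPS26B (-0.019) in YEPD. With quantile normalization, the sign changed for RPS2 (-0.24), RPS3 (-0.20) and RPS22B (0.041) in minimal medium and RPS2 (-0.17) and RPS12 (-0.011) in YEPD. With the replicate block, the sign changed for the A to B differences of RPS21 (-0.015) and RPS27 (0.061) in YEPD. With the same total per library, the sign changed for RPS12 (0.22), RPS22B (0.38) and RPS25B (0.40) in minimal medium. With the same total outside the ribosomal DNA frames, the sign changed for RPS2 (-0.093) and RPS3 (-0.10) in minimal medium and RPS2 (-0.092) and RPS12 (-0.013) in YEPD. With weights per library, the sign changed for RPS2 (-0.017) and RPS3 (-0.067) in minimal medium, RPS2 (-0.11), RPS9A (-0.028), RPS10B (-0.081), RPS12 (-0.062), RPS18B (-0.062) and RPS27A (-0.0097) in YEPD and the A to B differences of RPS4 (-0.062), RPS14 (-0.21), RPS19 (0.028) and RPS23 (0.072) in YEPD.

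Leaving out 1 library at a time, values crossed 0 in minimal medium for RPS2 (-0.011 to 0.030), RPS3 (-0.043 to 0.065), RPS22B (-0.14 to 0.073) and RPS25B (-0.079 to 0.023). In minimal medium they did so for the A to B difference of RPS28 (-0.074 to 0.15). In YEPD they did so for RPS2 (-0.12 to 0.12), RPS1A (-0.018 to 0.53), RPS9A (-0.076 to 0.50), RPS10B (-0.11 to 0.29), RPS12 (-0.13 to 0.23), RPS18B (-0.055 to 0.27), RPS21B (-0.030 to 0.86), RPS27A (-0.015 to 0.55) and RPS27B (-0.013 to 0.64). They did so too in YEPD for the A to B differences of RPS27 (-0.25 to 0.035), RPS4 (-0.072 to 0.13), RPS14 (-0.22 to 0.43), RPS19 (-0.49 to 0.048), RPS23 (-0.36 to 0.069) and RPS25 (-0.021 to 0.40).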

Other observations

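The ADPRC libraries numbered 2 in the 2 media deviated from their own groups in a like way over the small-subunit genes. Each library's log2 values were centred on its group mean, and over the 57 genes the deviations of minimal ADPRC replicate 2 had a Pearson correlation of 0.61 with those of YEPD ADPRC replicate 2, against -0.75 and -0.31 with the unnumbered library and replicate 3 of YEPD ADPRC. Over all 5490 genes the values were 0.32, -0.30 and -0.23. Minimal ADPRC replicate 3 had correlations over the 57 genes of 0.78 with the unnumbered library, 0.32 with YEPD replicate 3 and -0.63 with YEPD replicate 2, so that its closest library was not the one of its own number. The deviations of a group sum to 0, so these values are not independent of each other, and they are given as a description. Mock libraries with the same number in both media had correlations between -0.10 and 0.22 over the 57 genes.

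The likeness could be read in some pairs but not in others, and the first pairs given here were picked because they showed it. The A to B ratio of RPS14 was 10.4, 14.3 and 9.47 in the minimal ADPRC libraries and 6.57, 16.3 and 7.37 in those of YEPD (unnumbered, replicates 2 and 3), so that replicate 2 was the highest in both. RPS23, a pair for a decoding-centre protein, read 0.686, 0.554 and 0.803 and 0.928, 0.51 and 0.845, and RPS19 read 0.494, 0.368 and 0.511 and 0.689, 0.327 and 0.669, with replicate 2 the lowest each time. RPS21 gave 0.495, 0.409 and 0.557 and 0.499, 0.32 and 0.499, again lowest in replicate 2. Other pairs had opposite ranks in the media. RPS22 read 9.34, 8.27 and 8.39 and 5.76, 7.48 and 6.88, with replicate 2 lowest in minimal medium and highest in YEPD, as in RPS25. In RPS0, RPS27 and RPS29 replicate 2 was highest in minimal medium and lowest in YEPD. The labels do not say what, if anything, libraries of the same number share across media, and its part in these values was not tested.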
